A study of Mus musculus with 15 samples.

Results

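The thioredoxin and peroxiredoxin genes described here are Txn1, Txnip, Txnrd1, Prdx1, Prdx2, Prdx3, Prdx5, Prdx6 and Glrx, 9 genes chosen by name, and 8 of them had a value among the 31366 genes measured. A row of the deposited array table counted for a gene when it was annotated to that gene alone, and the value of a gene was the median of its exon regions, on a log2 scale. Prdx1 had no such row and is given only through rows it shares with a pseudogene. The samples were splenic B cells isolated by magnetic sorting from C57BL/6 mice that were wild type (WT) or carried a conditional knockout labelled ELL2 -/- cko, made to remove ELL2, which speeds RNA polymerase II along genes. The labels name neither the Cre line that deletes Ell2 nor the deleted exon. RNA was taken from the cells at once, or after they had been kept with LPS for 72 hours. LPS, lipopolysaccharide, is a component of bacteria that makes B cells divide and turn into antibody-secreting cells. WT cells were measured on 4 arrays without and 4 with LPS, and ELL2 cko cells on 4 without and 3 with it, each from an individual mouse per the labels. No cells were cultured without LPS, so LPS and the time in culture cannot be told apart in anything called a change with LPS here.

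Thioredoxin, the product of Txn1, is a small protein that reduces disulfide bonds in other proteins and is itself reduced by thioredoxin reductase, the selenoprotein encoded by Txnrd1, with electrons from NADPH. Peroxiredoxins remove hydrogen peroxide, and several of them are recycled by thioredoxin, while glutaredoxin (Glrx) does related work with glutathione. Txnip binds thioredoxin and blocks it, also restrains glucose uptake, and is known as a gene that resting lymphocytes express strongly and switch down when they are activated.

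The medians of the arrays over all rows lay between 5.72 and 5.78. Ell2, the targeted gene, lay between 10.87 and 11.10 in unstimulated WT and between 9.78 and 11.17 in unstimulated ELL2 cko cells, and these ranges overlap. In stimulated cells it lay between 15.73 and 16.86 in WT and between 14.14 and 14.16 in ELL2 cko, a difference of -2.11 ± 0.29 (log2 difference ± SE from limma, adjusted p = 9.03e-04). The exon regions behind this value need not lie in the deleted part, so it is a limited check of the labels. The B cell markers, a mean over 9 genes, lay between 15.05 and 15.44 in unstimulated WT arrays. In unstimulated ELL2 cko it was 13.55 and 13.56 in replicates 1 and 2 and 15.24 and 15.20 in replicates 3 and 4. In 4 ELL2 cko arrays the mean of 17 T cell markers stood apart: it was 10.87 and 10.37 in replicates 1 and 2 without LPS and 6.52 and 6.76 in replicates 2 and 3 with LPS. All 8 WT arrays lay between 4.78 and 5.05. Cd3d, a chain of the T cell receptor complex, reached 13.29 and 12.51 in the unstimulated pair and 8.06 and 7.89 in the stimulated pair, against 4.89 to 5.31 in WT. The unstimulated pair was also high in the means of NK cell markers (8.86 and 8.73), monocyte and macrophage markers (8.85 in both) and neutrophil markers (10.77 and 10.38). Monocyte and macrophage markers were also raised in unstimulated ELL2 cko replicate 4 (6.20) and in stimulated replicates 2 and 3 (5.89 and 5.87), where WT arrays held 4.94 to 5.36. Calls on the gene values of the thioredoxin and redox genes that rest on ELL2 cko arrays are given with and without the 4 arrays with T cell markers. Leaving these out leaves 2 arrays without LPS, replicate 4 among them, and 1 with LPS. Splicing indices were not refitted without the 4 arrays. In bulk RNA, fewer cells of a type and less RNA per cell cannot be told apart.

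After 72 hours with LPS, WT cells had more RNA of the thioredoxin arm and of glutaredoxin. Txn1, Txnrd1, Glrx and Prdx3 rose, 4 of the 8 genes with a value, and none fell. Of all genes measured, 24.5% were called in this comparison at an adjusted p under 0.05, 13.9% higher and 10.6% lower. The median change of the 8 genes was 0.85, beside 0.032 for all genes. In 6 of the 8 the arrays with and without LPS did not overlap, as was so for 28% of all genes. In ELL2 cko cells 3 of the 8 rose, Txn1, Txnrd1 and Glrx, and Txnip fell. The shares over all genes there were 6.36% called higher and 3.99% called lower, 10.3% in all, and the groups did not overlap for 5 of the 8 genes and for 19.5% of all genes. The median change of the 8 genes in ELL2 cko was 0.46, beside 0.037 for all genes. Without the 4 arrays with T cell markers 2 of the 8 were called in ELL2 cko, Txn1 (1.83 ± 0.29, limma adjusted p = 0.00698) and Txnrd1 (1.77 ± 0.32, limma adjusted p = 0.0122), where 4.16% of all genes were.

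**Figure D1:**
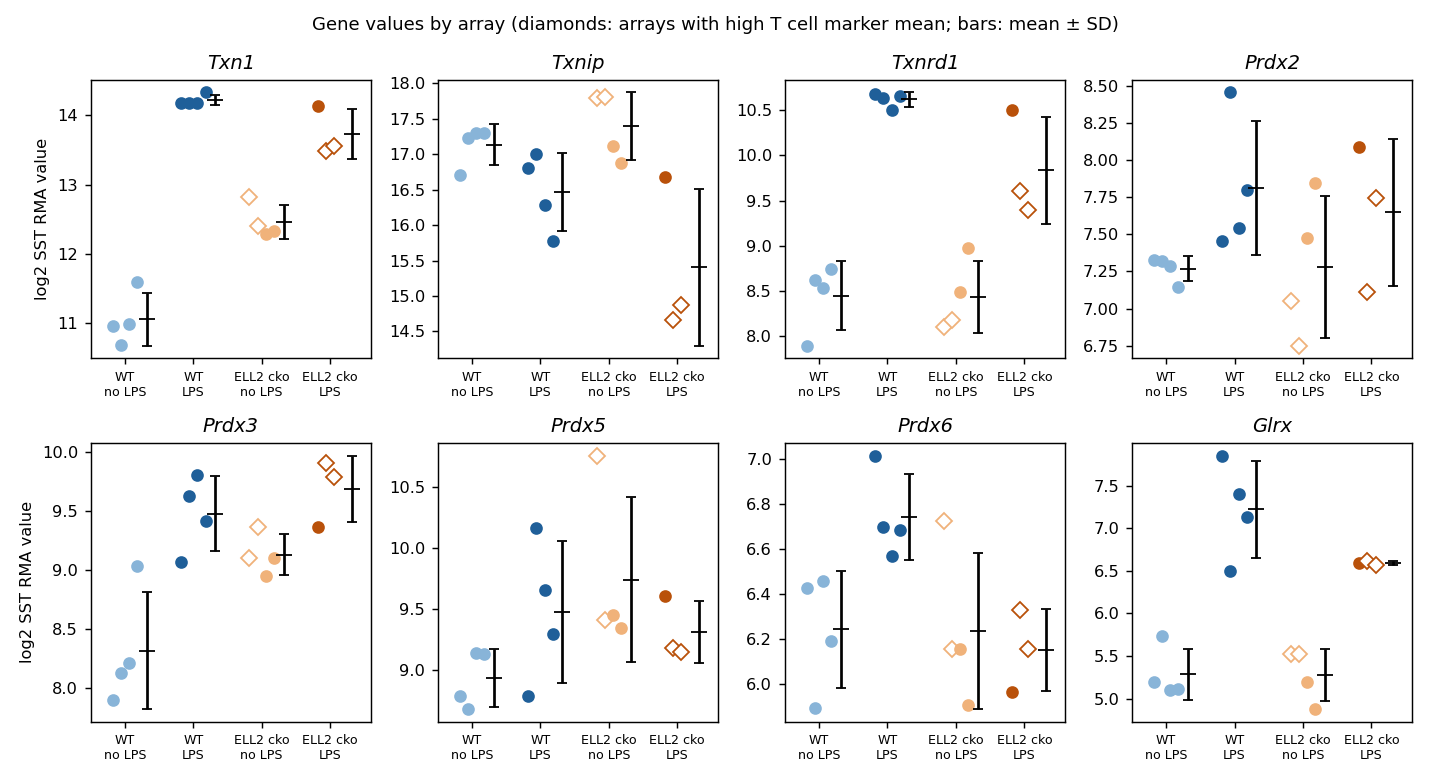
Log2 SST RMA value (vertical axis, own scale in each panel) of the 8 genes in each of the 15 arrays, by group (horizontal axis), with the mean and SD of each group beside the points; open diamonds are the 4 ELL2 cko arrays with a high T cell marker mean. Txn1 forms 4 separate levels, from 10.69 to 11.59 in WT without LPS up to 14.18 to 14.33 in WT with LPS.

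Txn1 changed most clearly of the set. Its values were 10.96, 10.69, 10.98 and 11.59 in WT cells without LPS and 14.19, 14.18, 14.19 and 14.33 with LPS. In ELL2 cko cells they were 12.83, 12.40, 12.29 and 12.33 without LPS and 14.14, 13.48 and 13.57 with LPS. The order of the group means was thus WT without LPS (11.06 ± 0.38, SD, n = 4), ELL2 cko without LPS (12.46 ± 0.25, n = 4), ELL2 cko with LPS (13.73 ± 0.36, n = 3) and WT with LPS (14.22 ± 0.08, n = 4), and no neighbours in this order overlapped. With LPS, Txn1 rose by 3.16 ± 0.19 in WT (9.0-fold on this scale, limma adjusted p = 3.91e-08). In ELL2 cko it rose by 1.27 ± 0.21 (2.4-fold, limma adjusted p = 0.00136). The 2 rises differed: the change in ELL2 cko was lower than that in WT by 1.90 log2 units (difference -1.90 ± 0.28, limma adjusted p = 0.00748). This was 1 of 8 genes called for the difference of the LPS changes, where 1.36% of all genes were called and 1.18% were called lower in ELL2 cko. In the means it adds up from both ends: ELL2 cko lay above WT without LPS (1.41) and below it with LPS (-0.49). The difference with LPS was not called (limma adjusted p = 0.239). Without the 4 arrays with T cell markers, the 7 exon regions of Txn1 differed by -0.29 to 0.23 between the stimulated genotypes. The unstimulated end thus made up more of the difference of the LPS changes. Without the 4 arrays with T cell markers the difference was -1.34 ± 0.34 (limma adjusted p = 0.298), in a fit that called 0 of all 31366 genes for this difference.

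The Txn1 value is that of a single exon region, PSR0400022065.mm.1, which was the middle one of 7 in all 15 arrays. Its neighbours in level behaved alike. Exon region PSR0400022063.mm.1 held 14.74, 14.20, 14.48 and 15.08 in WT without LPS and 17.80, 17.59, 17.63 and 17.60 with LPS. PSR0400022066.mm.1, a dimmer one, held 7.88, 8.10, 8.22 and 7.68 without and 10.77, 10.73, 11.23 and 11.12 with LPS. In all, 5 of the 7 exon regions were called higher in WT, with changes of 2.00 to 3.16, where 11.3% of all exon regions were. In ELL2 cko 3 of the 7 were called higher, where 3.55% of all exon regions were. Without the 4 arrays with T cell markers the 7 changed by 0.48 to 1.83 in ELL2 cko. The pair not called in WT, PSR0400022060.mm.1 and PSR0400022068.mm.1, lay between 2.78 and 4.57 in all arrays and changed by 0.16 and 0.29 in WT. For the difference of the LPS changes 4 of the 7 exon regions were called lower in ELL2 cko, where 0.338% of all exon regions were called lower and 0.0531% higher. Without the 4 arrays 0 of all exon regions were called by limma there, with 4 of the 7 of Txn1 at an unadjusted p under 0.05.

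Txnrd1, whose product keeps thioredoxin reduced, followed Txn1 in the direction of its changes with LPS. WT cells held 7.90, 8.62, 8.54 and 8.74 without LPS and 10.68, 10.63, 10.50 and 10.66 with LPS, with no overlap. ELL2 cko cells held 8.10, 8.18, 8.49 and 8.98 without LPS and 10.50, 9.61 and 9.39 with LPS, again with no overlap. Txnrd1 rose by 2.17 ± 0.25 in WT (4.5-fold, limma adjusted p = 1.77e-05) and by 1.40 ± 0.27 in ELL2 cko (2.6-fold, limma adjusted p = 0.00436). Unstimulated WT and ELL2 cko cells overlapped, as did the stimulated ones. There replicate 1 of ELL2 cko reached the WT values, and replicates 2 and 3, the stimulated arrays with T cell markers, lay below all of them. With LPS, the value in WT replicates 2, 3 and 4 and in ELL2 cko replicate 1 was that of PSR1000007458.mm.1, described below. Over the bright exon regions, defined with Prdx2 below, ELL2 cko replicate 1 held 10.658 with LPS, below the 10.805 to 11.491 of WT.

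Exon regions of Txnrd1 did not change equally. In WT 14 of its 19 exon regions were called higher with LPS, where 11.3% of all exon regions were, and in ELL2 cko 8 of 19, where 3.55% were called higher and 7.1% in either direction. With the 4 arrays left out 4 of the 19 were called higher in ELL2 cko, where 1.11% of all exon regions were. The largest change in WT was in PSR1000007473.mm.1, with 7.90, 8.62, 8.65 and 9.14 without LPS and 11.96, 11.99, 11.95 and 11.87 with LPS. In ELL2 cko this exon region held 8.10, 8.18, 9.46 and 9.81 without and 11.19, 9.40 and 9.39 with LPS, so that the groups overlapped. Exon region PSR1000007458.mm.1 did not follow: it held 10.54 to 10.80 in WT without LPS, 10.50 to 10.66 in WT with LPS, 10.13 to 10.51 in ELL2 cko without LPS and 10.50 to 10.62 with LPS. Relative to its gene it was lower with LPS in WT by 2.21 (splicing index change -2.21, limma adjusted p = 1.51e-04). The splicing index subtracts, in each array, the gene's value from that of the row. In replicates 2, 3 and 4 of WT with LPS the gene's value was that of PSR1000007458.mm.1, so the row was subtracted from itself there. Its index change and adjusted p are partly set by this. Row positions were not used here, so it is not known which exon PSR1000007458.mm.1 is.

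Txnrd1 is known as a target of NRF2, the transcription factor of the oxidative stress response, which binds antioxidant response elements. For that reason the 300 bases around 1 of the 3 start sites that RefSeq lists for it are shown. Of the 3 windows only this one holds the letters marked, and it was picked for them. It runs from 250 bases before the start to 50 after it, chr10:82858956-82859255 on the forward strand of GRCm38.p6. The capitals mark the core TGACNNNGC of the antioxidant response element, found on the reverse strand.
Txnrd1 promoter: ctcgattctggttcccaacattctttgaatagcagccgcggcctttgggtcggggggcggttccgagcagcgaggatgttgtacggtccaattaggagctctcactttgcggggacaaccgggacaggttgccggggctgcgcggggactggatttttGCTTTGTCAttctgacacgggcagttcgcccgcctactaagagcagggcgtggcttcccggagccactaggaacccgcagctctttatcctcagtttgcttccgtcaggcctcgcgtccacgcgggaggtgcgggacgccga
These letters, searched on both strands, occur in 12.4% of 32851 RefSeq promoter windows of this length, and a match is a description, not a site. Among the windows of the 9 genes, of which 8 have one, they were found for Txnrd1 and Prdx1.

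Glrx, the cytosolic glutaredoxin, which uses glutathione to take glutathione off modified proteins, rose in both genotypes. Its values were 5.20, 5.73, 5.10 and 5.11 in WT without LPS and 7.85, 6.50, 7.40 and 7.13 with LPS. ELL2 cko cells held 5.52, 5.52, 5.19 and 4.88 without LPS and 6.59, 6.61 and 6.57 with LPS. All stimulated arrays lay above all unstimulated ones, and the genotypes overlapped at each state. The rise was 1.93 ± 0.24 in WT (3.8-fold, limma adjusted p = 3.86e-05) and 1.31 ± 0.26 in ELL2 cko (2.5-fold, limma adjusted p = 0.00554). Without the 4 arrays with T cell markers the change in ELL2 cko was 1.55 ± 0.45 (limma adjusted p = 0.0951). The brightest of its 4 exon regions, PSR1300005944.mm.1, held 8.45, 8.71, 8.98 and 9.32 in WT without LPS and 13.10, 12.25, 12.69 and 12.17 with LPS, a rise of 3.68 (limma adjusted p = 6.95e-05). In unstimulated ELL2 cko cells it held 11.64, 11.54, 9.16 and 9.35, high in the same pair of arrays that held T cell, NK cell and myeloid markers, and with LPS 11.34, 11.41 and 11.43. The part of other cells in that difference was not tested. The median of its junction rows differed by only 0.54 in WT and 0.23 in ELL2 cko, with limma adjusted p of 0.107 and 0.683.

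Txnip, the inhibitor of thioredoxin, moved the other way from Txn1 in ELL2 cko cells. WT cells held 16.70, 17.23, 17.30 and 17.29 without LPS and 16.81, 17.00, 16.28 and 15.78 with LPS. These groups overlap, and the change of -0.66 ± 0.40 was not called (limma adjusted p = 0.271). After a further quantile normalization it was -1.74 ± 0.39 (limma adjusted p = 0.0038), so the call in WT depends on the scaling. In ELL2 cko the values were 17.79, 17.80, 17.11 and 16.87 without LPS and 16.68, 14.66 and 14.88 with LPS. Txnip fell by 1.99 ± 0.43 on the log2 scale there (4.0-fold, limma adjusted p = 0.00864), and all 3 stimulated arrays lay below all 4 unstimulated ones. Both unstimulated arrays with such markers were the highest and both stimulated ones the lowest of their groups, and without these 4 arrays the change was -0.32 ± 0.44 (limma adjusted p = 0.834). The call was also lost without replicate 2 or replicate 3 of the stimulated ELL2 cko group (limma adjusted p of up to 0.0548) and when only the 2 groups were fitted (0.0546). All 15 exon regions of Txnip had a lower mean with LPS in ELL2 cko, by 0.94 to 2.42 log2 units, and 12 of them were called lower, where 3.56% of all exon regions were. When the 4 arrays were left out, 0 of the 15 were called by limma and 0 had an unadjusted p under 0.05, where 1.22% of all exon regions were called lower. In WT 0 of the 15 were called by limma and 0 had an unadjusted p under 0.05, against 12% of all exon regions called lower and 11.3% higher. The splicing index was called in WT for 3 of 24 Txnip rows, where 15.6% of all rows were. The largest index change was that of PSR0300007529.mm.1, which held 11.58, 13.81, 13.28 and 13.74 in WT without LPS and 13.94, 15.05, 13.97 and 13.35 with LPS, and its splicing index rose by 1.64 (limma adjusted p = 0.00921).

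The Txnip promoter is shown because MLX and its MONDO partners, factors that respond to glucose, are known to act on it through a pair of E-box-like elements, the carbohydrate response element. The window is chr3:96557707-96558006 on the forward strand of GRCm38.p6, from RefSeq, and the capitals mark a run of CACGNG, 5 further bases and CACGNG again, which begins at position -85 from the start.
Txnip promoter: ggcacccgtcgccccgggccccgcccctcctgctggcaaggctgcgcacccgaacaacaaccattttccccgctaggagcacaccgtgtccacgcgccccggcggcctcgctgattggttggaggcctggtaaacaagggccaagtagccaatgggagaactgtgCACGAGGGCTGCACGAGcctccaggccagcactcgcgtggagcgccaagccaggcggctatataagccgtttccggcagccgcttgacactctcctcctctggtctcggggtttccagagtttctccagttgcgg
Searched on both strands, these letters occur in 16 of the 32851 RefSeq windows (0.0487%), and among the windows of the 9 genes in that of Txnip alone. Of the alpha-arrestins related to Txnip and the MLX and MONDO genes, 7 were measured. In WT with LPS Mlx rose by 1.71 ± 0.42 (limma adjusted p = 0.00682), while Arrdc1, an alpha-arrestin, fell by 1.72 ± 0.17 (limma adjusted p = 3.16e-06). In ELL2 cko Arrdc1 fell by 1.00 ± 0.18 and Arrdc4, an alpha-arrestin that like Txnip is known as a MONDO target, by 1.17 ± 0.31 (limma adjusted p = 0.0024 and 0.0278). When the 4 arrays were left out, the change of Arrdc4 was -0.57 ± 0.27 (limma adjusted p = 0.354) and that of Arrdc1 was -1.28 ± 0.28 (limma adjusted p = 0.0308).

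**Figure D2:**
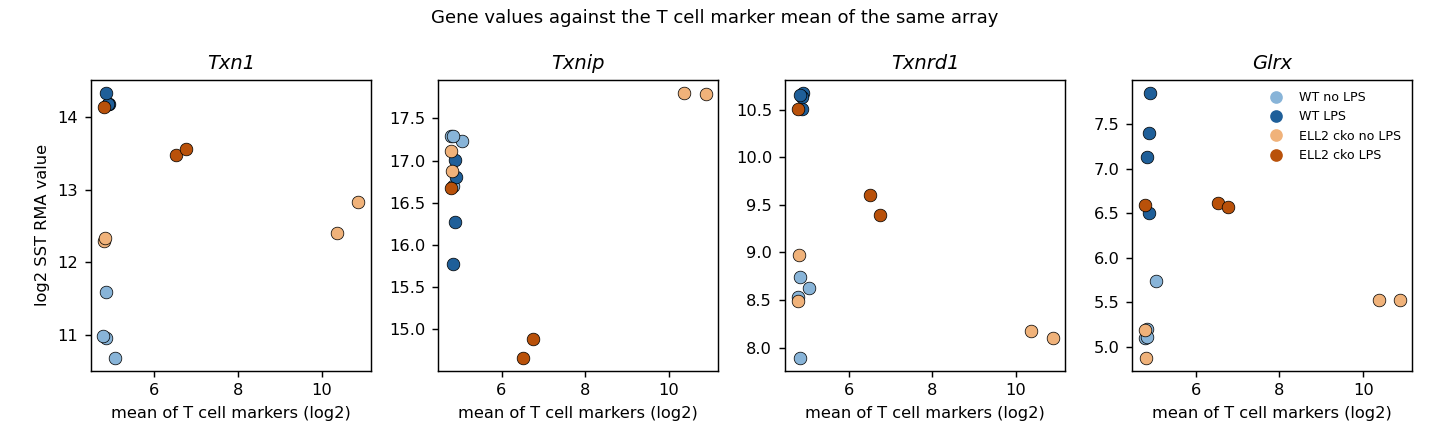
Log2 value of Txn1, Txnip, Txnrd1 and Glrx (vertical axis) against the mean of 17 T cell markers in the same array (horizontal axis, log2), with 1 point for each of the 15 arrays coloured by group. Unstimulated ELL2 cko arrays without T cell markers, replicates 3 and 4, held Txn1 at 12.29 and 12.33, where the maximum of unstimulated WT was 11.59. Replicate 4 was raised in monocyte and macrophage markers (mean 6.20). The lowest Txnip values, 14.66 and 14.88, came from the stimulated ELL2 cko arrays with T cell markers. The part of other cells in these values was not tested.

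Among the peroxiredoxins the gene values moved less. Prdx3, the peroxiredoxin of mitochondria, held 7.90, 8.12, 8.20 and 9.03 in WT without LPS and 9.06, 9.62, 9.80 and 9.41 with LPS. The groups touch without overlapping, and Prdx3 rose by 1.16 ± 0.23 (2.2-fold, limma adjusted p = 0.0015). In ELL2 cko it held 9.10, 9.36, 8.94 and 9.10 without LPS and 9.36, 9.90 and 9.78 with LPS, a change of 0.56 ± 0.25 that was not called (limma adjusted p = 0.187). All 8 of its exon regions had a higher mean with LPS in WT. Of them 2 were called, where 11.3% of all exon regions were called higher, and 4 had an unadjusted p under 0.05. With the median of junction rows the change of Prdx3 in WT was 0.77 (limma adjusted p = 0.077). Exon region PSR1900015504.mm.1 rose by 1.61 while PSR1900015506.mm.1, at 10.19 to 10.59 without and 10.05 to 10.76 with LPS, changed by 0.06 and was the 1 of 14 Prdx3 rows whose splicing index was called in WT.

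Prdx2 and Prdx6 show how the median of a gene can hide a change of its brighter rows. Prdx2, a cytosolic peroxiredoxin that is abundant in red blood cells, held 7.33, 7.32, 7.29 and 7.15 in WT without LPS and 7.45, 8.46, 7.54 and 7.80 with LPS. The groups do not overlap, but the change of 0.54 ± 0.27 was not called (limma adjusted p = 0.167). Its 20 exon regions split by level. Bright exon regions were taken as those whose mean over all 15 arrays reached the median of all exon regions, 5.97, a split chosen after the values were seen. Of the 13 bright ones 9 were called higher in WT, where 18.1% of all bright exon regions were called higher and 20.5% lower. Of the 7 dim ones 0 were called higher and 1 lower. Of all exon regions, bright and dim together, 11.3% were called higher and 12% lower. Dim exon regions were thus called less often in general, so a low count among dim ones is not particular to Prdx2. PSR0800007408.mm.1 held 10.98, 10.84, 11.55 and 11.55 in WT without LPS and 12.96, 13.71, 13.43 and 13.30 with LPS, and rose by 2.12 (limma adjusted p = 0.00364). Taken over the bright exon regions, the Prdx2 value rose by 2.09 ± 0.37 in WT (limma adjusted p = 4.34e-04) and by 1.40 ± 0.40 in ELL2 cko (limma adjusted p = 0.0273; 0.00803 without the 4 arrays). The median of its junction rows rose by 2.61 ± 0.33 in WT (limma adjusted p = 2.42e-05) and by 1.42 ± 0.35 in ELL2 cko (limma adjusted p = 0.0232, but 0.0957 without the 4 arrays). A junction row, JUC0800003917.mm.1, held 10.39, 10.09, 10.31 and 10.48 without and 14.51, 13.50, 14.54 and 13.55 with LPS in WT. The means of 8 erythroid markers lay between 4.68 and 5.45 in unstimulated ELL2 cko cells and between 4.50 and 4.86 in WT arrays, and Prdx2 itself was lowest in replicates 1 and 2 of unstimulated ELL2 cko (7.05 and 6.75).

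Prdx6, which removes peroxides from phospholipids and uses glutathione rather than thioredoxin, held 6.43, 5.89, 6.46 and 6.19 in WT without LPS and 7.02, 6.70, 6.57 and 6.69 with LPS. The groups did not overlap, and the change of 0.50 ± 0.18 narrowly missed the threshold (limma adjusted p = 0.0567). In ELL2 cko it held 6.72, 6.15, 6.15 and 5.90 without and 5.96, 6.33 and 6.16 with LPS, with overlap and a change of -0.08 ± 0.19 (limma adjusted p = 0.853). Of its 18 exon regions 8 were called higher in WT, where 11.3% of all exon regions were. Of these 8, 7 were among the 11 bright ones. In ELL2 cko 0 of the 18 were called higher and 1 lower by limma, with 1 at an unadjusted p under 0.05. Of all exon regions 3.55% were called higher and 3.56% lower there. PSR0100027610.mm.1 held 9.02, 8.28, 8.88 and 8.89 in WT without LPS and 12.08, 11.07, 11.11 and 11.23 with LPS, and in ELL2 cko 10.52, 10.73, 9.11 and 9.41 without and 10.10, 10.23 and 11.26 with LPS. Over the bright exon regions Prdx6 rose by 1.50 ± 0.22 in WT (limma adjusted p = 8.07e-05) and differed by 0.43 ± 0.24 in ELL2 cko (limma adjusted p = 0.235), so the sign in ELL2 cko depends on the rows used. The difference of the LPS changes over the bright rows was -1.07 ± 0.32 (limma adjusted p = 0.0879). With the mean of all exon regions it was -0.71 ± 0.16 (limma adjusted p = 0.0375, but 0.354 without the 4 arrays), beside -0.58 ± 0.26 (limma adjusted p = 0.367) with their median. Rows of Prdx6 may also catch RNA of its close relatives Prdx6b and the pseudogene Prdx6-ps2, as may those of Txn1 and Prdx2 with pseudogenes of their own.

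Prdx5, found in mitochondria, peroxisomes and the cytosol, was not called in any comparison. It held 8.78, 8.68, 9.14 and 9.13 in WT without LPS, 8.79, 10.16, 9.66 and 9.30 in WT with LPS, 10.76, 9.41, 9.45 and 9.35 in ELL2 cko without LPS, and 9.61, 9.18 and 9.15 in ELL2 cko with LPS. Its changes with LPS were 0.54 ± 0.32 in WT and -0.43 ± 0.34 in ELL2 cko (limma adjusted p = 0.261 and 0.514), with intervals of -0.14 to 1.22 and -1.17 to 0.31. The 95% intervals are from the same model. Of its 17 exon regions 0 were called by limma with LPS in either genotype, with 1 at an unadjusted p under 0.05 in each. The shares called of all exon regions were 23.3% in WT and 7.1% in ELL2 cko. Of its 23 rows 0 were called for the splicing index, with 4 of the 23 at an unadjusted p under 0.05 in WT and 1 in ELL2 cko. Replicate 1 of unstimulated ELL2 cko cells, the array with the highest T cell marker mean, was also the highest in Prdx5.

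Prdx1, the most studied cytosolic peroxiredoxin, had 24 rows, all of them annotated also to the pseudogene Gm21399, so its RNA cannot be separated from that of the pseudogene. Group means of 15 of the 16 shared exon regions were higher with LPS in WT, with differences of -1.06 to 2.24, and of 12 of the 16 in ELL2 cko, with differences of -0.52 to 1.18. These are values of shared rows, given without a test.

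**Figure D3:**
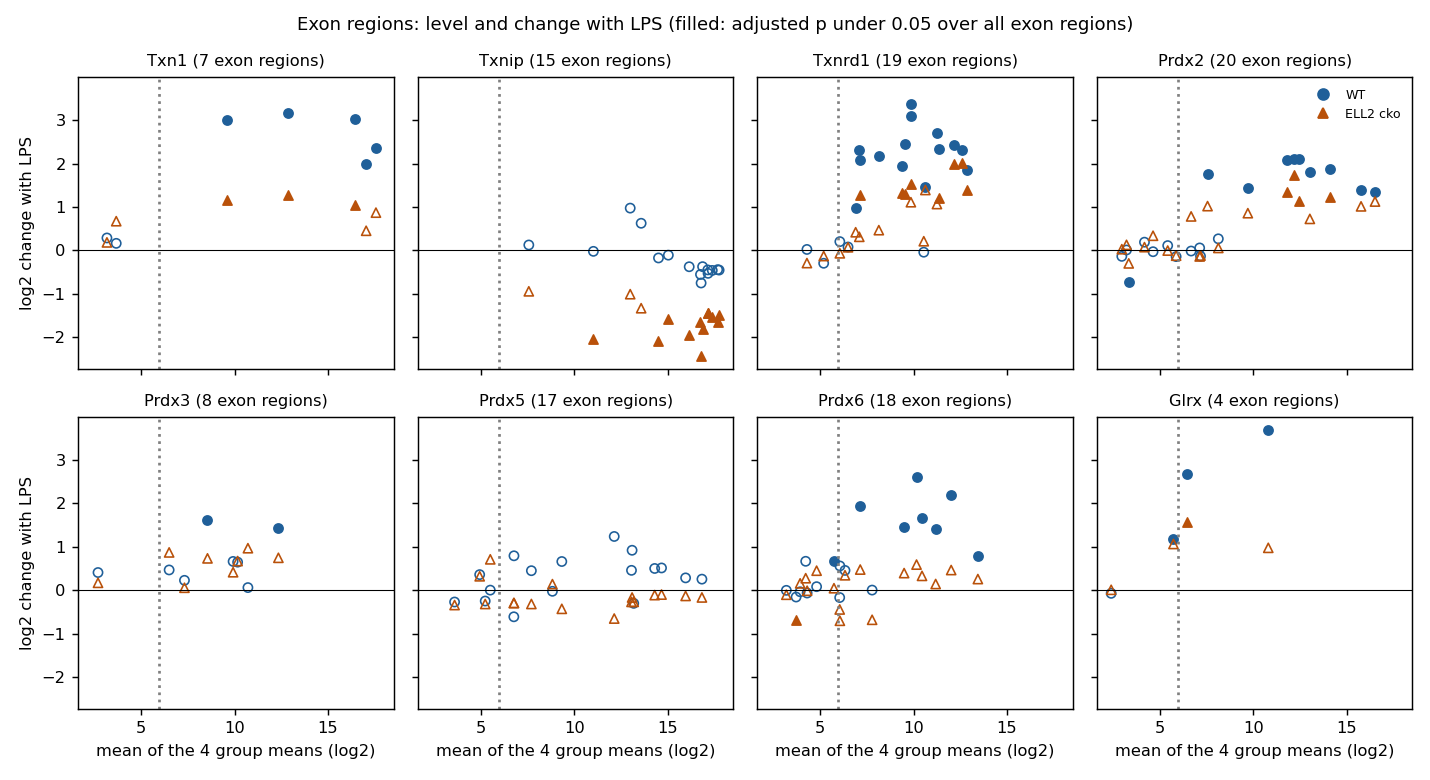
Log2 change with LPS of each exon region (vertical axis) against the mean of its 4 group means (horizontal axis, log2) for the 8 genes, with WT as blue circles and ELL2 cko as orange triangles; filled symbols were called by limma over all exon regions, and the dotted line marks 5.97. In WT the 5 bright exon regions of Txn1 lie at 2.00 to 3.16 and its dim pair at 0.16 and 0.29, and all 15 of Txnip lie below 0 in ELL2 cko.

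Before stimulation Txn1 was higher in ELL2 cko than in WT cells. All 4 ELL2 cko arrays lay above all 4 WT arrays, and the difference was 1.41 ± 0.19 (2.7-fold, limma adjusted p = 0.0411). It was 1 of 8 genes called, and over all genes 4 of 31366 were (0.0128%), with 2829 at an unadjusted p under 0.05. Markers of other cells differed too, with 15 of 17 T cell markers at an unadjusted p under 0.05 and none called. The other three, named after their values were seen, were Gm6682 (1.05 ± 0.14) and the tubulin genes Tuba1a (1.01 ± 0.14) and Tuba1c (0.87 ± 0.12), all higher in ELL2 cko. This call was fragile although its direction was not: over 25 alternatives the difference lay between 0.92 and 1.59, and the call was lost in 20 of them, with adjusted p of up to 0.167. The 2 unstimulated ELL2 cko arrays without T cell markers held 12.29 and 12.33, and with those alone the difference was 1.26 ± 0.21 (limma adjusted p = 0.148), in a fit that called 0 of all genes there. All 5 bright exon regions of Txn1 had a higher mean in ELL2 cko, by 1.12 to 1.55, and 0 of the 7 passed when limma was run over all exon regions, where 0.000295% did (1 exon region), while 5 of the 7 had an unadjusted p under 0.05. Prdx5 also did not overlap between the unstimulated groups, so that 2 of the 8 genes were free of overlap beside 4.81% of all genes, but its difference of 0.81 ± 0.32 was not called (limma adjusted p = 0.482), and neither was that of Prdx3 (0.81 ± 0.23, limma adjusted p = 0.397). Txnrd1, Glrx, Prdx2 and Prdx6 differed by -0.02 to 0.01, with the widest of their 95% intervals, that of Prdx2, running from -0.56 to 0.58. The median difference of the 8 genes was 0.14, beside 0.0032 for all genes.

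With LPS, 0 of the 8 genes were called between the genotypes by limma, where 4.66% of all genes were and 3.3% were called lower. An unadjusted p under 0.05 was held by 5 of the 8 and by 5334 of all 31366 genes. Means were lower in ELL2 cko for 7 of the 8, with Prdx3 the exception (0.21 ± 0.25), and the median difference was -0.54, beside 0.016 for all genes. Txnip differed by -1.06 ± 0.43, Txnrd1 by -0.78 ± 0.27, Glrx by -0.63 ± 0.26, Prdx6 by -0.59 ± 0.19 and Txn1 by -0.49 ± 0.21, with limma adjusted p between 0.109 and 0.239. In Txn1 and Prdx6 the groups did not overlap, 2 of 8 genes beside 13.9% of all genes, and in Txn1 the gap was small (14.14 against 14.18). In the reported fit Prdx6 lay nearest the threshold (limma adjusted p = 0.109, beside 0.135 for Txnrd1). Other row summaries called Txnrd1. Its difference was -0.70 ± 0.12 with the mean of exon regions (limma adjusted p = 0.00357), -1.65 ± 0.40 with the median of junction rows (limma adjusted p = 0.0301) and -1.14 ± 0.28 with the bright exon regions (limma adjusted p = 0.0192). None of these calls was kept without the 4 arrays (limma adjusted p = 0.306, 0.643 and 0.565). Of its exon regions 4 of 19 were called lower in ELL2 cko, where 2.39% of all exon regions were, and the largest difference was that of PSR1000007474.mm.1. That exon region held 8.46 to 9.05 in the 4 WT arrays and 8.07, 5.56 and 6.44 in ELL2 cko (difference -2.11, limma adjusted p = 0.0292; 0.678 without the 4 arrays). Again replicate 1 lay close to WT and the 2 arrays with T cell markers lay far below. Without those arrays 1 stimulated ELL2 cko array is left, and against it Txnrd1 differed by -0.11 ± 0.29, Txn1 by -0.08 ± 0.27 and Txnip by 0.21 ± 0.40, while Prdx6 and Glrx differed by -0.78 ± 0.24 and -0.63 ± 0.41, with limma adjusted p between 0.282 and 0.961. That fit assumes that the lone array varies like the other groups.

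The stimulated groups also differed in markers of antibody secretion. The mean of 10 markers of antibody-secreting cells lay between 13.57 and 14.50 in WT and between 11.70 and 12.20 in ELL2 cko with LPS. The ELL2 cko array at 12.20, replicate 1, held Txn1, Txnrd1 and Txnip at 14.14, 10.50 and 16.68, near the WT values. Its Prdx6 was 5.96, below the 6.57 to 7.02 of WT with LPS. Its Glrx was 6.59, where WT with LPS held 6.50 to 7.85. Prdx2, Prdx3 and Prdx5 lay within the range of WT with LPS there. Over the bright exon regions its Txnrd1 was 10.658, below the 10.805 to 11.491 of WT with LPS. The mean of the B cell markers, which such cells lose, lay between 10.07 and 12.80 in WT and between 12.99 and 13.26 in ELL2 cko. The part of antibody secretion in the thioredoxin values was not tested. For the difference of the LPS changes all 8 genes had a negative value, with a median of -0.70 beside 0.0022 for all genes, and these values share the control arrays of the comparisons above. Txnip differed there by -1.32 ± 0.58, Prdx5 by -0.97 ± 0.47 and Txnrd1 by -0.77 ± 0.37, with limma adjusted p of 0.351, 0.411 and 0.412. The value of Txnip turned positive without the 4 arrays, to 0.35 ± 0.51.

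**Figure D4:**
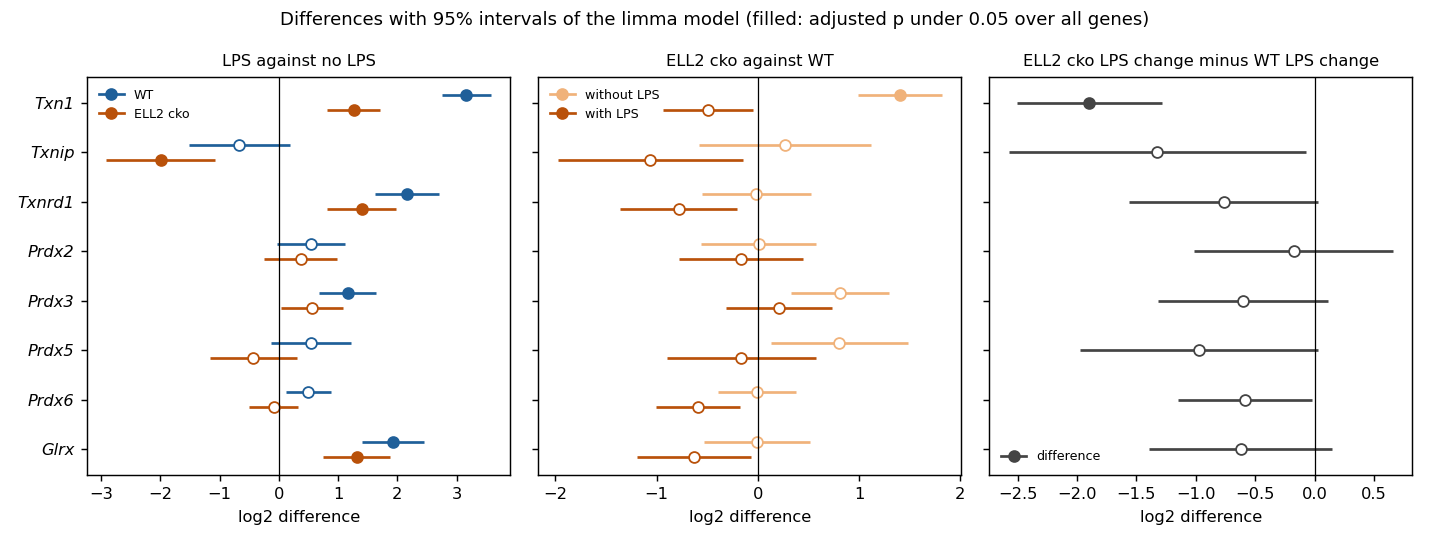
Log2 differences (horizontal axes) of the 8 genes (rows) with LPS in each genotype (left), between genotypes without and with LPS (middle) and for the difference of the LPS changes (right), with 95% intervals of the limma model; filled circles were called over all genes. Txn1 is filled in every comparison except that between the genotypes with LPS, where its difference is -0.49.

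Seen beside the rest of the cell's redox genes, the changes with LPS in WT were not a rise of every antioxidant. Of 80 further genes in 7 lists, 27 rose and 10 fell with LPS in WT, and 8 rose and 8 fell in ELL2 cko. The shares of all genes are those given above, 13.9% higher and 10.6% lower in WT and 6.36% and 3.99% in ELL2 cko, and the counts of each list below stand beside the same shares. Leaving out the 4 arrays, 7 rose and 5 fell in ELL2 cko. The lists were drawn up with earlier results of these data known, and nothing is claimed to be particular to a list. Of 16 other thioredoxin-fold genes 4 rose and 3 fell in WT (median 0.27). The largest rise was that of Prdx4, the peroxiredoxin of the endoplasmic reticulum, by 6.91 ± 0.46 in WT (limma adjusted p = 8.85e-08) and by 3.42 ± 0.50 in ELL2 cko (limma adjusted p = 5.76e-04). Txnl1, a thioredoxin-like protein of the proteasome, rose by 2.39 ± 0.26 in WT and 1.54 ± 0.28 in ELL2 cko, and Nxn, nucleoredoxin, by 1.15 ± 0.19 in WT. Txnl4a, a small protein of the spliceosome, fell by 1.00 ± 0.21 in ELL2 cko. With the 4 arrays left out, Prdx4 stayed called in ELL2 cko (limma adjusted p = 0.00754), Txnl1 did not (0.98 ± 0.41, limma adjusted p = 0.269), and neither did Txnl4a (-1.26 ± 0.32, limma adjusted p = 0.0518). With LPS, Prdx4 was lower in ELL2 cko than in WT (difference -3.06 ± 0.50, limma adjusted p = 0.00284), and its LPS changes differed by -3.48 ± 0.68 (limma adjusted p = 0.0244). Without the 4 arrays neither was called (limma adjusted p = 0.239 and 0.297).

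Of 15 glutathione genes 4 rose and 1 fell in WT (median 0.16), among them the glutathione transferases Gstt1 (1.99 ± 0.63) and Gstp1 (1.86 ± 0.30), which rose, and Ggct, which breaks down glutathione products and fell by 1.04 ± 0.21. In ELL2 cko 0 of the 15 were called by limma. An unadjusted p under 0.05 was held there by 7 of the 15 and by 7276 of all 31366 genes. Of 5 genes of superoxide and catalase 3 rose in WT, among them Ccs, the copper chaperone of superoxide dismutase (1.15 ± 0.17), and Sod1 itself (0.93 ± 0.20). Cat, catalase, fell by 1.02 ± 0.18 in WT and by 1.12 ± 0.20 in ELL2 cko (limma adjusted p = 7.12e-04 and 0.00218), and in ELL2 cko also without the 4 arrays (0.0317).

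Of 14 genes of the NRF2 pathway 6 rose and 2 fell in WT (median 0.54) and 3 rose and 1 fell in ELL2 cko (median 0.20). Slc3a2, a subunit of amino acid transporters that include the cystine carrier, rose by 4.98 ± 0.26 in WT and by 2.61 ± 0.28 in ELL2 cko, and these changes differed by -2.36 ± 0.38 (limma adjusted p = 0.00954). Sesn2, a stress-induced regulator of mTORC1, rose by 3.21 ± 0.27 in WT and 1.50 ± 0.29 in ELL2 cko, and Ftl1, the ferritin light chain, by 2.89 ± 0.51 in WT. Sqstm1, an autophagy receptor, rose by 2.40 ± 0.21 in WT and by 1.43 ± 0.23 in ELL2 cko. Nfe2l2, the gene of NRF2 itself, named after its values were seen, fell by 1.07 ± 0.18 in WT and by 0.69 ± 0.20 in ELL2 cko. Nqo1, Keap1 and Maff of this list and Gclc of the glutathione list, also named afterwards, were not called in either genotype. Slc7a11 and Hmox1 of this list, likewise named afterwards, changed by 1.46 and 1.30 in WT. In ELL2 cko without the 4 arrays they changed by 0.38 and 0.29. The activity of NRF2 was not tested. In ELL2 cko Slc3a2 and Nfe2l2 stayed called without the 4 arrays (limma adjusted p = 0.00174 and 0.0218), while Sesn2 (1.73 ± 0.43) and Sqstm1 (1.25 ± 0.39) did not (limma adjusted p = 0.053 and 0.118). With LPS, Slc3a2 and Sesn2 were lower in ELL2 cko than in WT (differences -1.73 ± 0.28 and -1.53 ± 0.29, limma adjusted p = 0.00282 and 0.0082), and neither was called without the 4 arrays (limma adjusted p = 0.249 and 0.346), nor was the difference of the LPS changes of Slc3a2 (0.328).

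Of 12 genes that supply NADPH 4 rose and 1 fell in WT (median 0.39): the isocitrate dehydrogenases Idh1 and Idh2 rose by 2.03 ± 0.53 and 1.28 ± 0.21, and Me2, a malic enzyme of mitochondria, fell by 1.29 ± 0.17. In ELL2 cko 1 of the 12 was called, Me2, which fell by 0.63 ± 0.18. Without the 4 arrays Me2 was not called (-0.80 ± 0.27, limma adjusted p = 0.162) and Idh1 was (2.21 ± 0.50, limma adjusted p = 0.035). Of 11 genes whose products are reduced or bound by thioredoxin, glutaredoxin or Txnip, 5 rose and 1 fell in WT. Ribonucleotide reductase makes the building blocks of DNA and is reduced by thioredoxin or glutaredoxin. Its S phase subunit Rrm2 rose by 4.64 ± 0.49 and its large subunit Rrm1 by 1.64 ± 0.29 in WT, while Rrm2b, the subunit used outside S phase, fell by 1.62 ± 0.20. In ELL2 cko Rrm2 rose by 2.58 ± 0.52 and Rrm2b fell by 1.46 ± 0.22, as did Nlrp3, an inflammasome sensor that Txnip can bind, by 1.65 ± 0.48. Nlrp3 is also expressed by myeloid cells, and with the 4 arrays left out its change was -0.54 ± 0.19 (limma adjusted p = 0.167). Rrm2 was then not called either (2.22 ± 0.61, limma adjusted p = 0.0772), while Rrm2b was (-1.49 ± 0.33, limma adjusted p = 0.0326). Without LPS 0 of the 80 genes were called between the genotypes by limma, with 12 at an unadjusted p under 0.05, and 0 were called without the 4 arrays.

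**Figure D5:**
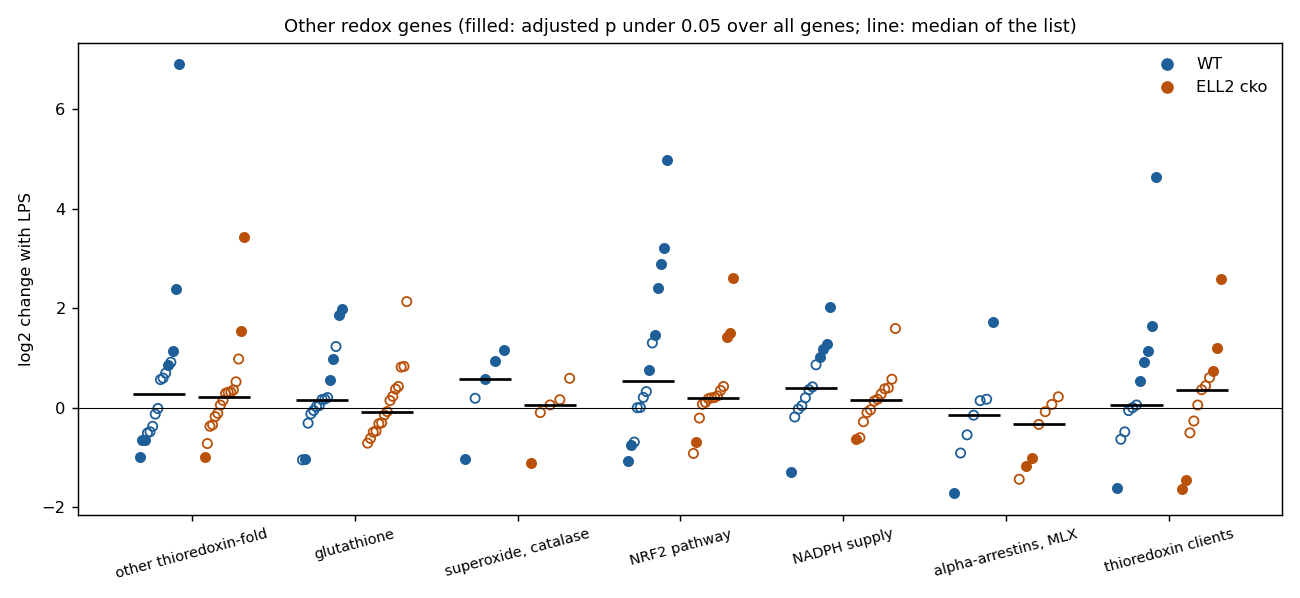
Log2 change with LPS (vertical axis) of each of 80 other redox genes in 7 lists (horizontal axis), WT in blue and ELL2 cko in orange; filled points were called by limma over all genes and lines are the medians of the lists. Prdx4 (6.91), Slc3a2 (4.98) and Rrm2 (4.64) are the highest points in WT, and the medians of the lists lie between -0.15 and 0.57 there.

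As a description without a test, each gene was set against 17752 others with at least 3 exon regions by Pearson's r over the 15 arrays, which share groups, LPS state and any other cells. Txn1 was most like Psma2, a proteasome subunit (r = 0.972), Pomp, which helps proteasomes assemble (0.964), and Atp5md (0.963). Txnrd1 was most like the histone gene H2bc18 (0.983), Gins2, a part of the replication helicase (0.975), and Tmem120b (0.974). Glrx was most like the kappa light chain segment Igkv3-12 (0.971), Tceal9 (0.969) and Cnpy2 (0.967). For Txnip the likeness was lower, with Zfp36, which binds and destabilises mRNAs, first (0.885), Btbd9 at 0.884 and Chaserr at 0.857. Prdx3 was most like Plxnb2 (0.939), Prdx2 like Seh1l (0.886), Prdx6 like Rhbdl2 (0.838) and Prdx5 like Blvra (0.832).

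Rows of a gene could change unequally with LPS in WT, as measured against the gene's median exon region. In some genes that median moved less than the bright exon regions. The gene values of Prdx2, Prdx6 and Glrx changed by 0.54, 0.50 and 1.93. The median changes of their bright exon regions were 1.44, 1.41 and 3.18. Bright rows that rose together can thus be called, and whether any call reflects splicing was not tested. The splicing index was called for 16 of 27 Prdx2 rows, 12 of 36 Txnrd1 rows, 9 of 30 Prdx6 rows, 5 of 10 Txn1 rows, 5 of 6 Glrx rows, 3 of 24 Txnip rows, 1 of 14 Prdx3 rows and 0 of 23 Prdx5 rows, where 15.6% of all rows tested were called. The shares of Txnip, Prdx3 and Prdx5 lie below that of all rows. Dim rows are among them, such as PSR0400022068.mm.1 of Txn1, which held 2.78 to 3.27 without and 3.15 to 3.37 with LPS and whose index change of -2.88 comes from the rise of its gene. In ELL2 cko between 0 and 2 rows of each gene were called, where 2.28% of all rows were. Between the genotypes with LPS 1 of 30 Prdx6 rows was called, where 0.594% of all rows were. It was junction row JUC0100015797.mm.1, at 3.82 to 4.95 in WT and 4.74 to 5.27 in ELL2 cko (index difference 1.38, limma adjusted p = 0.0476). Index calls that use ELL2 cko arrays were not refitted without the 4 arrays with T cell markers.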

How the data were processed

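Per the labels, the authors made the deposited values of 15 arrays with SST RMA in the Affymetrix Expression Console. Their deposited values were taken as log2 from their range (1.74 to 19.93) and used unchanged. Versions and genome build are not given in the sources used here. Of 725678 rows, 580167 were annotated to 1 gene symbol, 18694 to several and 126817 to none, and 338822 exon regions with 1 symbol gave 31366 gene values (medians). Old symbols (1465) were updated through RefSeq. A limma model (version 3.58.1, R 4.3.3) with 4 group means was fitted to all arrays and genes, with two-sided moderated tests and Benjamini-Hochberg adjustment over all genes, called at an adjusted p under 0.05. No filter on level was used. Exon regions and splicing indices were fitted in the same way over all rows. The methods were tested on simulated data. Named are all 9 genes, Ell2, up to 3 called genes per list and comparison, the 3 genes most like each, and rows with extreme changes or a called index. The genes and lists were chosen with earlier results of these data known. Alternatives were other row summaries, scalings and filters, another variance model, arrays left out and a replicate block. Fits of exon regions and of other row summaries without the arrays with T cell markers were added after seeing the data. Arrays came from individual mice per the labels, and their number limits the precision. Protein sequences were not used here.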

Additional observations from a re-analysis of the deposited data

Results flagged for a closer look

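Within groups of 4 arrays, 4 of 24 gene and group sets held an array whose gap to the nearest other array was over 0.829 of the range of the group, which chance gives in about 1 of 20 sets. Txn1 was 14.3331 in replicate 4 of WT with LPS, beside 14.18 to 14.19 in the others, a gap that is small in size. Txnip was 16.7016 in replicate 1 of WT without LPS, below the 17.23 to 17.30 of the others. Prdx5 was 10.7571 in replicate 1 of ELL2 cko without LPS, the array with the highest T cell marker mean (10.87), beside 9.35 to 9.45 in the others. Glrx was 5.7334 in replicate 2 of WT without LPS, beside 5.10 to 5.20.

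The change of Txn1 with LPS differed between the genotypes, by -1.90 (-1.89737) on the log2 scale, with a limma adjusted p of 0.00748 for the difference itself and 0.298 without the 4 arrays with T cell markers.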

How the results depend on the processing

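Of 992 comparisons of a gene between the reported value and an alternative, 892 kept their direction and their side of the threshold, 30 lost a call, 24 gained one and 46 changed sign, none of them of a called value. The calls of Txn1 and Txnrd1 in WT and of Txn1 in ELL2 cko were kept in all 25 alternatives. With the mean of exon regions Prdx6 changed by 0.071 in ELL2 cko, and Txnrd1, Prdx6 and Glrx differed by 0.082, 0.33 and 0.39 between unstimulated genotypes; 0 of the 8 genes were called there, 1 between stimulated genotypes and 3 for the difference of LPS changes. With the median of junction rows 4416, 1391, 2, 766 and 212 of all genes were called for LPS in WT, LPS in ELL2 cko, genotype without LPS, genotype with LPS and the difference; 0 of the 8 were called for genotype without and 1 with LPS. Prdx6 changed there by 1.13 in ELL2 cko, Txnrd1, Prdx6 and Glrx differed by 0.16, 0.35 and 0.0042 without LPS, and the difference of Prdx3 was 0.31. Between unstimulated genotypes quantile normalization called 8 genes and gave Prdx2 -0.040, and centred arrays gave Prdx2 -0.048. Centred arrays, the filter on dim genes, the trended robust variance model, the 2 compared groups alone and the replicate block each called 0 of the 8 and 0 of all genes there, beside 1 and 4 as reported. Fitting 2 groups alone called 2156 genes for LPS in ELL2 cko and 444 for genotype with LPS.

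With those 4 arrays with T cell markers left out 2 of the 8 and 1306 of all genes were called for LPS in ELL2 cko, where Prdx5 changed by 0.21. Without LPS 0 of the 8 and 0 of all genes were called between genotypes, with Txnip at -0.14 and Txnrd1 at 0.28. With LPS 35 genes were called, with Txnip, Prdx2, Prdx3 and Prdx5 at 0.21, 0.27, -0.11 and 0.13. For the difference 0 of the 8 and 0 of all genes were called, with Txnip at 0.35. With bright exon regions alone, chosen after seeing the data, Prdx6 changed by 0.43 in ELL2 cko and, with Glrx, differed by 0.68 and 0.86 between unstimulated genotypes, where 1 gene was called; 1 of the 8 was called with LPS, and 2 of the 8 and 699 genes for the difference.

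Leaving out 1 array at a time called 4 to 5, 3 to 4, 0 to 1, 0 to 2 and 1 to 2 of the 8 genes in the 5 comparisons, in the order above, and 6488 to 7849, 1931 to 3413, 0 to 29, 556 to 2162 and 109 to 1072 of all genes. It moved Prdx6 in ELL2 cko between -0.19 and 0.079. Without LPS it moved Txnrd1 between -0.20 and 0.097, Prdx2 between -0.18 and 0.19, Prdx6 between -0.17 and 0.10 and Glrx between -0.089 and 0.14. With LPS it moved Prdx2 between -0.38 and 0.10 and Prdx5 between -0.39 and 0.065, and the difference of Prdx2 between -0.39 and 0.093. Without replicate 1 of stimulated ELL2 cko, the array without T cell markers, Txnip and Txnrd1 were called between the stimulated genotypes. Both were lower in ELL2 cko than in WT there (lowest values -1.70 and -1.12). Of 21 same-numbered pairs of arrays 7 had a correlation of deviations over 0.1, in a range of -0.25 to 0.23. Differently numbered pairs were not computed, so these values cannot decide whether replicate numbers pair the arrays. The replicate block gave Txn1 without LPS an adjusted p of 0.086. The causes of these movements were not tested, other than that fewer arrays or rows enter some fits. Signal near background limits the dim rows, and 1 stimulated ELL2 cko array without T cell markers limits every comparison that uses it.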
